A study of Homo sapiens with 6 samples.

Results

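The genes described here encode the proteins of the cytosolic ribosome and of the mitochondrial ribosome. They were taken as every gene on the array whose platform symbol begins with RPL or RPS (cytosolic, large and small subunit) or with MRPL or MRPS (mitochondrial), leaving out the RPS6K kinases, RPS19BP genes, pseudogenes and Y-linked genes. This gave 150 genes of the 16922 on the array, 74 cytosolic and 76 mitochondrial. HES3 is an established line of human embryonic stem cells, grown on human feeder cells of which straining typically removed 90% per the labels. After 2 days on fibronectin, cells received 50 ng/ml Activin A together with 50 ng/ml bone morphogenetic protein 4 (BMP4), or 50 ng/ml Activin A alone, for 3 days in an endoderm differentiation medium. Each treatment was measured on 3 Illumina bead arrays of biotin-labelled total RNA, described by the submitters as biological replicates. The treatment text is the same for every sample and names both factors, so the assignment to treatments rests on the sample titles. All 6 samples are of 1 cell line.

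A ribosome is built from ribosomal RNA and many small basic proteins, each present in about equal amounts, and the cytosolic and mitochondrial machines are built from separate sets of protein genes. Cytosolic ribosomal protein mRNAs are abundant and typically start with a C followed by a run of pyrimidines, the 5′ terminal oligopyrimidine (TOP) motif, through which their translation follows growth signals. Mitochondrial ribosomal proteins are encoded in the nucleus, imported, and make the ribosome that translates the few messages of mitochondrial DNA, and many of their promoters carry sites for the nuclear respiratory factors.

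Most genes of both sets differed little between treatments. Of 69 cytosolic genes tested, 8 were higher with Activin A + BMP4, 5 were lower and 56 did not pass the threshold, against a background of 35.8% of all 8186 tested genes called (17.6% higher and 18.1% lower). A call here is a Benjamini-Hochberg adjusted p under 0.05 in limma over all tested probes. Calls made up 18.8% of the cytosolic genes. Without any 1 array the cytosolic counts were 3 to 5 higher and 3 to 4 lower, and with median scaling or the authors' processed values they were 3 higher and 4 lower. Of 68 mitochondrial genes tested, 3 were higher, 6 were lower and 59 did not pass, so calls made up 13.2%. With median scaling these counts were 2 higher and 7 lower, and with any 1 array left out 2 to 5 higher and 4 to 6 lower. Both shares lay below the share over all genes in 17 of 17 processing settings, with ranges of 9.46% to 26.1% for the cytosolic set and 8.82% to 19.1% for the mitochondrial set over the alternatives. No test was made of a set against other genes.

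The differences of both sets were centred near 0. The median log2 difference, Activin A + BMP4 minus Activin A, was 0.04 for cytosolic genes (quartiles -0.07 and 0.24) and 0.01 for mitochondrial genes (quartiles -0.20 and 0.17), and with median scaling both medians fell below 0, at -0.0389 and -0.0537. Over all tested genes it was 0.0019 (quartiles -0.26 and 0.28). Differences smaller than 0.25 in size were found for 45 cytosolic genes (65.2%) and 48 mitochondrial genes (70.6%), and for 47.0% of all tested genes. The size of the difference had a median of 0.14 in the cytosolic set, 0.18 in the mitochondrial set and 0.27 over all genes. A difference of 1 or more was seen for 1 gene of each set and for 771 genes in all. Both of these members were dim probes, RPL7A and MRPL38, whose differences were 0.72 and 0.63 under another background correction (normexp with an offset of 50).

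**Figure D1:**
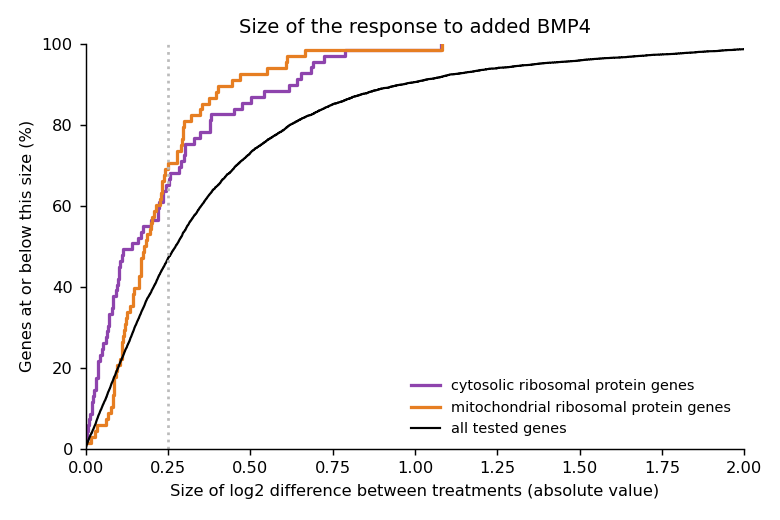
The horizontal axis gives the size of the log2 difference between treatments up to 2 and the vertical axis the percentage of genes at or below it, for cytosolic and mitochondrial ribosomal protein genes and for all tested genes. At 0.25 (dotted line) the curves stand at 65.2%, 70.6% and 47.0%.

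**Figure D2:**
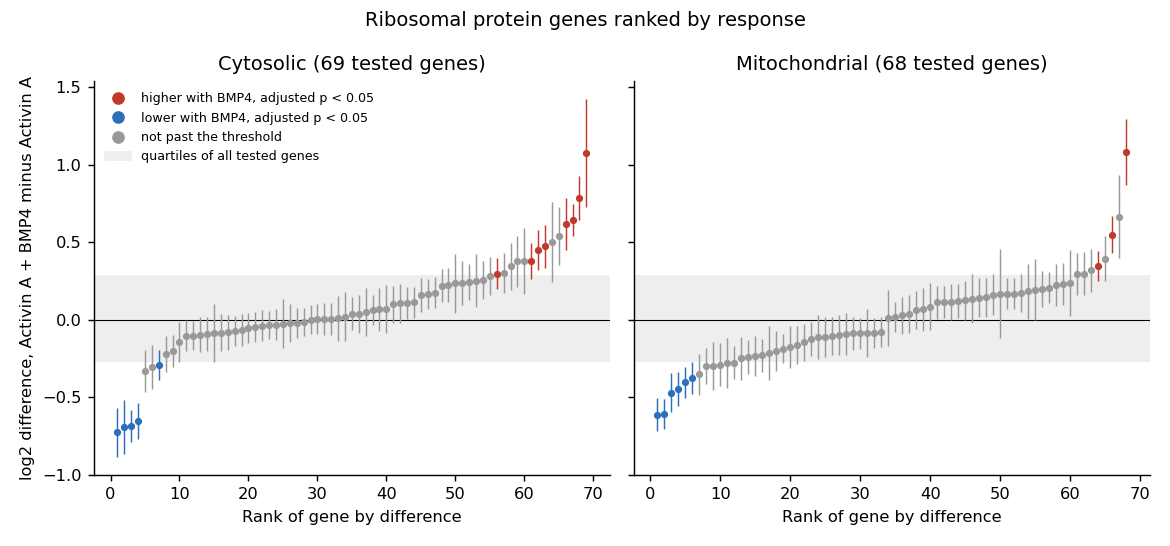
Each point is 1 tested ribosomal protein gene, ranked by its log2 difference (Activin A + BMP4 minus Activin A) with its standard error, and the grey band spans the quartiles of all tested genes. Most points are not past the threshold, and the 8 and 5 called cytosolic and 3 and 6 called mitochondrial genes lie mainly at the ends of the ranking.

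The signal range of the sets differed. Between 15 and 17 of the 50 brightest probes of each array were cytosolic ribosomal protein probes, and 0 were mitochondrial. With each gene read by its brightest probe, RPS25 at the bright end of the cytosolic set read 15.51, 15.55 and 15.47 with Activin A + BMP4 and 15.51 on each Activin A array. RPL28 at the dim end read 6.95, 6.89 and 6.55 against 6.54, 6.96 and 6.98. The arrays were quantile-normalized, which sets the brightest probe to 1 value: the probe of the elongation factor EEF1A1 read 15.97 on all 6 arrays. Of the 299 other genes with a mean level of at least 12, 34.4% were called. Of the 44 cytosolic genes at that level, 5 were called (11.4%), and of the 25 below it, 8 (32%). The 32% lay near the 35.8% called over all tested genes, and the 11.4% lay below the 34.4% of the other bright genes. Neither share was tested.

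**Figure D3:**
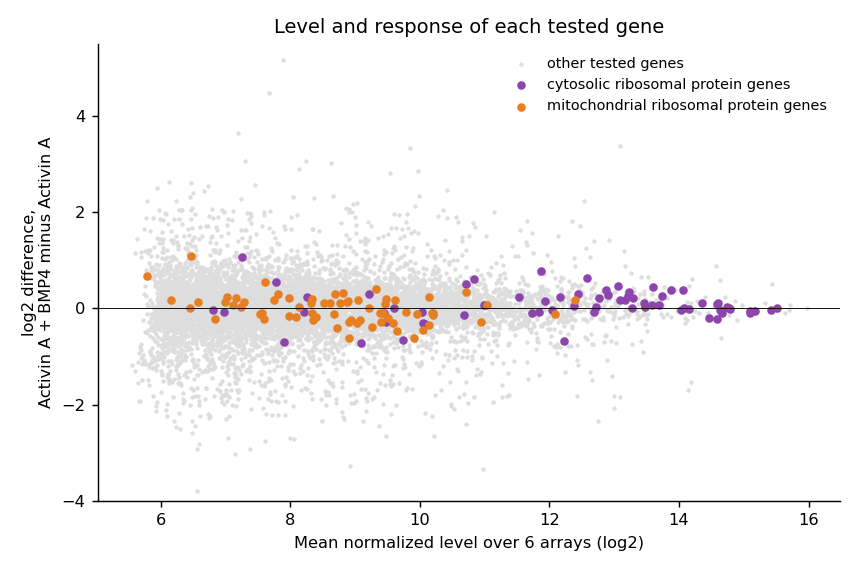
Each point is 1 tested gene, with its mean normalized log2 level over 6 arrays on the horizontal axis and its log2 difference, Activin A + BMP4 minus Activin A, on the vertical axis. Cytosolic ribosomal protein genes reach up the bright end of the scale, mitochondrial ones lie mostly below 12, and nearly all lie close to 0.

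Cytosolic ribosomal protein probes held 9.78%, 9.53% and 9.14% of the summed signal of the 3 Activin A + BMP4 arrays, against 9.16%, 8.98% and 8.99% in the 3 Activin A arrays. The lowest Activin A + BMP4 array thus lay just below the highest Activin A array, and the means were 9.48% ± 0.325 and 9.04% ± 0.101 (SD, n = 3 each). Mitochondrial probes held 0.524%, 0.519% and 0.514% with Activin A + BMP4, against 0.559%, 0.501% and 0.528% with Activin A alone, with full overlap. The mean normalized level of the cytosolic set minus that of the mitochondrial set was 3.53, 3.54 and 3.62 with Activin A + BMP4, against 3.50, 3.49 and 3.47 with Activin A. These groups did not overlap but stood only 0.08 apart on the log2 scale. The median level of the cytosolic set was 12.92, 13.01 and 13.10 with Activin A + BMP4, against 12.90, 12.71 and 12.68 with Activin A. These did not overlap either, and their means stood 0.24 apart, although the median of the gene differences was 0.04. For the mitochondrial set the median levels stood -0.03 apart, with overlap. The shares, levels and differences are given as descriptions, without a test.

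Marker genes of several cell types differed between the treatments. Of 29 tested markers of feeder fibroblasts, 22 were lower and 5 higher with Activin A + BMP4, and their summed normalized level was 67352 to 68940 with Activin A + BMP4 against 110548 to 125687 with Activin A. Of 8 pluripotency markers 5 were lower and 1 higher, and POU5F1 stayed detected on all arrays. Of 7 definitive endoderm markers 6 were higher and 0 lower. Of 5 leukocyte markers 2 were tested and 1 was lower, and of 6 proliferation markers 1 was higher and 1 lower. Called shares were 93.1% of feeder, 75% of pluripotency and 85.7% of endoderm markers, against 35.8% of all tested genes. The 33.3% of proliferation markers was near that share, and the leukocyte list rests on 2 genes. In bulk RNA, fewer cells of a type and less RNA per cell cannot be told apart, and the part of these cell types in the ribosomal results was not tested. Between 9348 and 10460 probes were detected per array, and normalized values correlated at 0.985 or more across tested probes within a treatment and at 0.926 to 0.945 between treatments. All Activin A arrays shared a chip, and the Activin A + BMP4 arrays lay on 2 others. No chip carried both treatments, so an effect of the chip cannot be told apart from that of the treatment. With chip as a random block (consensus correlation 0.0149), 7 cytosolic genes were higher and 4 lower, and the mitochondrial counts stayed at 3 and 6. The block cannot remove a chip effect that goes with the treatment.

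Among the cytosolic genes, those called were spread over both subunits and both directions. The small subunit had 24 tested genes, with 3 higher and 3 lower, and the large subunit had 45, with 5 higher and 2 lower. RPS28, RPS3A, RPS7 and RPL29 kept their calls under all 16 alternative settings, and the other 9 lost theirs under at least 1. The 4 that kept theirs had no second tested probe, so the setting that averages a gene's probes could not change their values. RPS24 lost its call in that setting only.

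RPS28, a small-subunit protein near the site where mRNA leaves the ribosome, read 11.96, 12.38 and 12.46 with Activin A + BMP4 and 11.53, 11.46 and 11.45 with Activin A (normalized log2 levels). The Activin A arrays lay within 0.1 of each other and all below the others. The log2 difference was 0.79 ± 0.14 (SE), 1.73-fold (limma adjusted p = 0.0031). RPS3A, another small-subunit protein, read 12.97, 12.77 and 12.97 against 12.25, 12.30 and 12.23. All Activin A + BMP4 arrays were the higher ones, by 0.64 ± 0.10 or 1.56-fold (limma adjusted p = 0.0017).

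RPS7, a small-subunit protein also known to bind the p53 regulator MDM2, moved the other way. It read 8.99, 8.70 and 8.50 with Activin A + BMP4 and 9.59, 9.20 and 9.57 with Activin A. No array of one treatment reached into the other, and the log2 difference was -0.73 ± 0.16, 1.65-fold lower (limma adjusted p = 0.0082). RPL29, a large-subunit protein also known for binding heparin, read 9.55, 9.46 and 9.24 against 10.17, 9.97 and 10.07. All Activin A + BMP4 arrays were the lower ones, by a log2 difference of -0.65 ± 0.12 (limma adjusted p = 0.0032).

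The annotated starts of these 4 genes are shown because the TOP motif is the sequence feature that cytosolic ribosomal protein mRNAs are known for. Each window holds 15 bases before and 15 from the annotated start, from RefSeq on GRCh38.p14, 5′ to 3′, and capitals mark the unbroken run of C and T that begins with C at the start. RPS28 is chr19:8321481-8321510 and RPS3A chr4:151099613-151099642, both on the plus strand. RPS7 is chr2:3575245-3575274 on the plus strand and RPL29 chr3:51995881-51995910 on the minus strand.
RPS28: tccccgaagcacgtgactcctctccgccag
RPS3A: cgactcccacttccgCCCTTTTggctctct
RPS7: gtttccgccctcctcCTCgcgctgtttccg
RPL29: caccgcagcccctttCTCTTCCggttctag
RPS3A and RPL29, which moved in opposite directions, both began with a run of 7 pyrimidines. RPS28 had none at its annotated start and RPS7 a run of 3, and these too moved in opposite directions. Both counts depend on the exact annotated base. In RPS28 a run of pyrimidines follows directly after the first base, and in RPS7 pyrimidines also stand directly before the start.

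A run of at least 5 pyrimidines beginning with C at an annotated start was found for 42 of the 62 cytosolic genes with a RefSeq promoter window (67.7%), for 6 of 68 mitochondrial genes (8.82%) and for 5.14% of the 27305 genes in the table. Among called cytosolic genes it was found in 6 of the 8 that were higher and in 4 of the 5 that were lower, against 31 of 46 that were not called. The short strings CTTTC or TTTCC within 10 bases of the start, which overlap that run, gave 35 of 62 cytosolic genes (56.5%), 6 of 68 mitochondrial genes (8.82%) and 6.90% of all genes. The run was thus present in most risers and in most fallers, and its share was not tested between them. A match describes the letters in the window and shows no start site in these cells.

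The other cytosolic rises were smaller or rested on fewer settings. RPL7A, a large-subunit protein whose probe is dim, read 7.74, 7.72 and 7.90 with Activin A + BMP4 and 6.89, 7.44 and 5.80 with Activin A. It was detected on 3 and on 2 arrays, the Activin A arrays ranged widely, and the difference was 1.08 ± 0.35 (limma adjusted p = 0.042). Its call was lost without any 1 of the Activin A + BMP4 arrays or without the first Activin A array, with adjusted p from 0.072 to 0.11. It was also lost with no background correction, the authors' processed values or no filter on dim probes (adjusted p 0.051 to 0.085), and without Activin A array 3, the one not detected, the difference was 0.62 (adjusted p = 0.035).

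RPL13A, a large-subunit protein that can leave the ribosome to repress translation in interferon-treated macrophages, read 10.89, 11.07 and 11.46 against 10.74, 10.40 and 10.42. The groups did not overlap, the difference was 0.62 ± 0.17 (limma adjusted p = 0.020), and without Activin A array 2 or 3 the adjusted p was 0.064 or 0.063. With median scaling it was 0.060.

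The acidic stalk proteins RPLP1 and RPLP2, which recruit the GTPases of translation to the large subunit, were both called higher. RPLP1 read 13.68, 13.72 and 14.06 with Activin A + BMP4 and 13.26, 13.44 and 13.41 with Activin A, a difference of 0.45 ± 0.13 (limma adjusted p = 0.026). RPLP2 read 14.27, 14.17 and 14.34 against 13.81, 13.78 and 14.05, a difference of 0.38 ± 0.11 (limma adjusted p = 0.032). Neither gene's arrays overlapped between treatments. The RPLP1 call was lost without Activin A + BMP4 array 3 (adjusted p = 0.058), Activin A array 1 (0.086) or Activin A array 3 (0.054), and with median scaling, the authors' values or no filter on dim probes (0.055 to 0.073). The RPLP2 call was lost without any 1 of 5 arrays, the exception being Activin A array 3, with adjusted p from 0.051 to 0.098, and under the same 3 settings (0.067 to 0.13). RPLP0, the third stalk protein, was not analysed here.

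RPS15, a small-subunit protein close to the decoding site, read 13.08, 13.22 and 13.56 against 12.84, 12.90 and 12.70, a difference of 0.48 ± 0.14 (limma adjusted p = 0.029). Its arrays did not overlap, and its call was lost without Activin A + BMP4 array 2 or 3 or Activin A array 1 or 3, with adjusted p from 0.058 to 0.091. It was also lost with median scaling, the authors' values, no filter, the replicate block (adjusted p = 0.053) or the mean of its probes, which gave 0.32 (0.060). Its second probe differed by 0.16 ± 0.10 (limma adjusted p = 0.27). RPL14, a large-subunit protein, differed by 0.30 ± 0.10 (limma adjusted p = 0.048), and was not called once any 1 array was left out (adjusted p 0.059 to 0.14) or in 6 other settings, among them the replicate block (0.092).

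The other cytosolic falls were RPS24, RPL36A and RPS23. RPS24, a small-subunit protein mutated in some families with Diamond-Blackfan anaemia, read 12.01, 11.79 and 11.85 with Activin A + BMP4 and 12.62, 12.50 and 12.58 with Activin A. The groups were well apart, by a log2 difference of -0.69 ± 0.10 (limma adjusted p = 0.0013), the smallest adjusted p of the set. The call did not extend to its second probe, described below.

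RPL36A, a large-subunit protein, read 7.82, 7.58 and 7.25 against 8.45, 7.98 and 8.30, a difference of -0.69 ± 0.17 (limma adjusted p = 0.015). Its groups did not overlap, and without Activin A array 1 the adjusted p was 0.056. RPS23, a small-subunit protein of the decoding centre, differed by -0.29 ± 0.10 (limma adjusted p = 0.0475) and lost its call without any 1 array (adjusted p 0.069 to 0.13) and in 6 other settings, among them the replicate block (0.094).

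**Figure D4:**
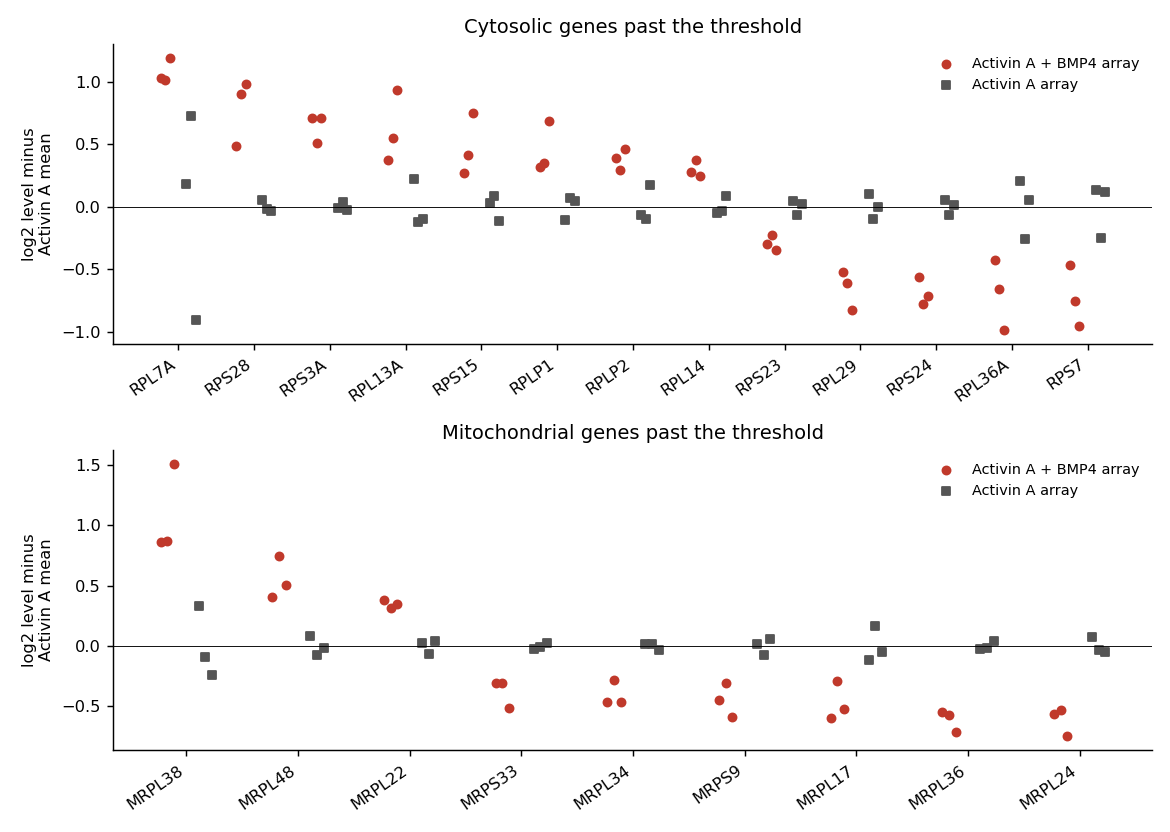
Each point is 1 array, given as its normalized log2 level minus the mean of the Activin A arrays for the same gene, with the 3 Activin A + BMP4 arrays (red circles) left of the 3 Activin A arrays (grey squares), for the 13 cytosolic and 9 mitochondrial genes past the threshold. The treatments do not overlap for any of these genes, and the Activin A arrays of RPL7A and MRPL38 spread most. The genes were chosen by a call between these same arrays, so their separation is no evidence apart from that call.

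Among the cytosolic genes, the treatments' arrays stood fully apart for 24 of 69 (34.8%), 14 higher and 10 lower, and among the mitochondrial genes for 21 of 68 (30.9%), 9 higher and 12 lower, against 50.2% of all tested genes. At an unadjusted p under 0.05, 18 cytosolic genes (26.1%) and 15 mitochondrial genes (22.1%) passed, against 45.5% of all tested genes.

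Several cytosolic proteins have a paralog that can take their place in the ribosome or that is made in particular tissues. RPL39L, known in testis as a counterpart of RPL39, read 10.10, 9.99 and 9.59 with Activin A + BMP4 and 10.18, 10.28 and 10.13 with Activin A. Its arrays did not overlap, but the difference of -0.30 ± 0.14 did not pass (limma adjusted p = 0.14), and that of RPL39 was -0.10 ± 0.11 (0.54). RPL36AL, the autosomal counterpart of the falling RPL36A, differed by 0.07 ± 0.16 (0.76), and whether the pair differ in response was not tested.

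No other paralog measured passed the threshold. The log2 difference was -0.02 ± 0.12 for RPL26 and -0.09 ± 0.11 for RPL26L1. It was 0.23 ± 0.19 for RPL7 and 0.22 ± 0.11 for RPL7L1. RPL22 differed by -0.10 ± 0.09, RPS27 by -0.04 ± 0.10 and RPL3 by 0.38 ± 0.16 (limma adjusted p = 0.11). RPL5 and RPL11, which with 5S ribosomal RNA form the particle that binds MDM2, differed by 0.30 ± 0.13 (0.10) and 0.11 ± 0.10 (0.44). The RPL5 arrays did not overlap between treatments, while those of RPL11 did. The paralogs RPS27L, RPL3L and RPL10L were not detected on any array, and RPL22L1 was not analysed here.

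In the mitochondrial set, the large subunit had 43 tested genes, with 3 higher and 4 lower, and the small subunit had 25, with 0 higher and 2 lower. MRPL24, MRPL36, MRPL34, MRPL48, MRPL38 and MRPS9 kept their calls in every alternative in which they were tested. None of them had a second tested probe, so averaging a gene's probes could not change their values.

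MRPL24, a protein beside the exit tunnel of the large subunit, read 8.65, 8.68 and 8.46 with Activin A + BMP4 and 9.28, 9.17 and 9.16 with Activin A. Every Activin A + BMP4 array was lower, with a log2 difference of -0.61 ± 0.11 (limma adjusted p = 0.0026). MRPL36, whose bacterial counterpart is a small zinc-binding protein of the large subunit, read 9.67, 9.64 and 9.50 against 10.18, 10.19 and 10.25. These groups were as far apart, at -0.61 ± 0.10 (limma adjusted p = 0.0019).

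MRPS9, a small-subunit protein, read 9.82, 9.97 and 9.69 with Activin A + BMP4 and 10.29, 10.19 and 10.33 with Activin A, a difference of -0.45 ± 0.11 (limma adjusted p = 0.014). MRPL34, a very short large-subunit protein, read 8.45, 8.64 and 8.46 against 8.93, 8.94 and 8.88, a difference of -0.40 ± 0.10 (limma adjusted p = 0.015). Neither gene's groups overlapped.

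MRPL17, on the large subunit, read 9.28, 9.59 and 9.36 against 9.76, 10.05 and 9.83, a difference of -0.47 ± 0.13 (limma adjusted p = 0.020). It was not called without Activin A + BMP4 array 1 (adjusted p = 0.066) or 3 (0.056) or Activin A array 2 (0.068). MRPS33, a small-subunit protein, differed by -0.38 ± 0.10 (limma adjusted p = 0.023), and its second probe also fell, by 0.58 on the log2 scale (limma adjusted p = 0.010). That second probe was near background, with a mean level of 6.09 and detection on 1 Activin A + BMP4 array and 3 Activin A arrays. The brighter probe lost its call without Activin A + BMP4 array 3 or any Activin A array (adjusted p 0.056 to 0.066).

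The 3 mitochondrial rises were MRPL48, MRPL38 and MRPL22, all of the large subunit. MRPL48 read 7.75, 8.08 and 7.85 with Activin A + BMP4 and 7.43, 7.27 and 7.33 with Activin A, a difference of 0.55 ± 0.12 (limma adjusted p = 0.0077). MRPL38 read 6.79, 6.80 and 7.43 against 6.26, 5.83 and 5.68, a difference of 1.08 ± 0.21 (limma adjusted p = 0.0047). All Activin A + BMP4 arrays were higher for both genes, but MRPL38 was near background, detected on 3 arrays with Activin A + BMP4 and 1 with Activin A, and its difference ranged from 0.63 to 1.33 over the alternatives, the lowest under normexp with an offset of 50.

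MRPL22, which lines the exit tunnel, read 10.92, 10.85 and 10.89 against 10.56, 10.47 and 10.57. The groups were narrow and apart, with a difference of 0.35 ± 0.09 (limma adjusted p = 0.021). Its call was lost without Activin A + BMP4 array 1 or 2 or Activin A array 1 or 2 (adjusted p 0.052 to 0.069). It was also lost with median scaling, where the difference was 0.22 (adjusted p = 0.20), and with the authors' values, where it was 0.23 (0.19). MRPL1, on the large subunit, had the next largest rise among those not called, 0.67 ± 0.27 (limma adjusted p = 0.089), at the dim end of the scale.

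The falling mitochondrial genes are shown by the stretch of their promoters that holds GCGCNNGCGC, a palindromic core of the sites of nuclear respiratory factor 1, which is why both strands read alike. Windows are 30 bases from RefSeq on GRCh38.p14, in the direction of the gene, with the core in capitals. MRPL36 is chr5:1799928-1799957 on the minus strand, MRPL17 chr11:6683402-6683431 on the minus strand and MRPS9 chr2:105038019-105038048 on the plus strand. MRPL34 is chr19:17305627-17305656 on the plus strand and MRPS33 chr7:141015088-141015117 on the minus strand.
MRPL36: tcgcactccaGCGCCTGCGCactcgctgct
MRPL17: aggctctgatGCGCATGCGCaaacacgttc
MRPS9: cgcgccattaGCGCCTGCGCcgtctctagg
MRPL34: aatgccttgtGCGCACGCGCttgctcagaa
MRPS33: tagccttactGCGCAGGCGCcaggtacacc
The cores began 110, 81, 40, 16 and 155 bases before an annotated start, in the order listed, and MRPL34 had a second match.

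This core stood in the promoter windows of 5 of the 6 falling mitochondrial genes, MRPL24 being the exception, and of 0 of the 3 rising ones. It was found for 4 of 51 mitochondrial genes not called, 10 of 68 mitochondrial genes in all (14.7%), 8 of 62 cytosolic genes (12.9%) and 9.98% of all genes in the table. Among cytosolic genes it stood in 3 of the 8 that were higher and 0 of the 5 that were lower, the opposite split. The fallers had 10 annotated windows for 6 genes, of which 6 held the core, against 8.32% of all windows. The split by call was noticed after the values were seen, rests on few genes and was not tested. The ETS core CCGGAAG, searched on both strands, was found for 30 of 68 mitochondrial genes (44.1%), 22 of 62 cytosolic genes (35.5%) and 12.2% of all genes, and for 1 of the 6 falling mitochondrial genes.

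Where a gene had several tested probes, the brightest stood for it above. The 14 cytosolic genes with more than 1 tested probe gave 17 pairs, and the 12 such mitochondrial genes gave 15. A limma test of the difference between probes, chosen after seeing the data, called 0 of these pairs, against 2.92% of 1061 pairs on the array. RPS15A and RPS24 came nearest. The brightest RPS24 probe differed by -0.69 and the other by 0.13 ± 0.15, a gap of 0.81 ± 0.19 (limma adjusted p = 0.054). With the mean of its probes the RPS24 difference was -0.28 and was not called (limma adjusted p = 0.079).

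The choice of probe also set which genes were counted. Of probes other than the brightest, 5 of 4 cytosolic genes and 1 of a mitochondrial gene were called where the brightest was not. RPS15A, a small-subunit protein, had a brightest probe at 0.01 and a dimmer one at 0.77 ± 0.13 (limma adjusted p = 0.0024), with an adjusted p of 0.051 for the gap between them in the same kind of limma fit. RPS29, a zinc-binding small-subunit protein, had probes at -0.36 and 0.37, both called, beside its brightest at -0.03. RPL34, RPL17 and MRPL33 each had a dimmer probe that was lower, with log2 differences of -0.45, -0.33 and -0.41. Probe sequences were not used here, so whether these probes read different isoforms or pseudogenes was not tested.

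**Figure D5:**
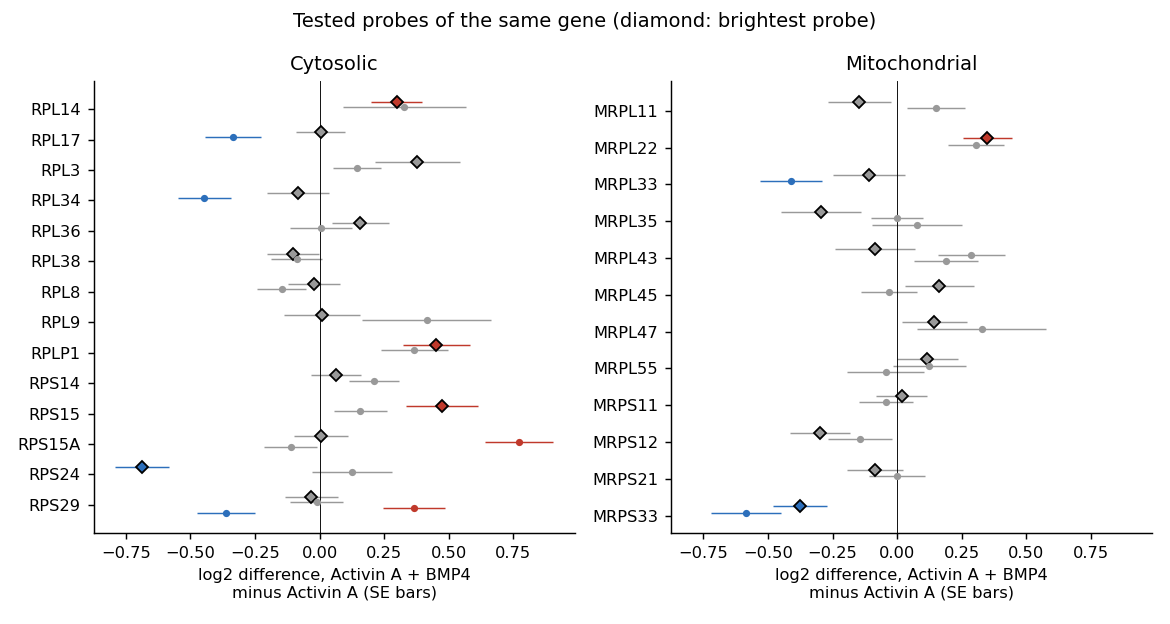
Each marker is 1 tested probe of a gene with several, placed at its log2 difference, Activin A + BMP4 minus Activin A, with its standard error; diamonds are the brightest probe, red and blue are probes called higher and lower, grey those not called. The probes of RPS24, RPS15A and RPS29 lie on both sides of 0 or far apart, and those of MRPS33 and MRPL22 lie together.

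Some members could not be tested. The probes of RPL10, RPL37, RPL10L, RPL3L and RPS27L were not detected on any array. Of 8 untested mitochondrial genes, MRPL3, MRPL19, MRPL30, MRPL44, MRPS14 and MRPS18C were not detected on any array, MRPL16 on 2 and MRPL4 on at most 1. RPL10 and RPL37 encode large-subunit proteins of the ribosome of every cell, so an undetected probe does not show that a gene was not transcribed.

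Genes that work with the ribosome were counted beside the 35.8% of all tested genes that were called, 17.6% higher and 18.1% lower. Of 24 tested translation factors and other TOP mRNAs, 3 were higher and 1 lower (16.7% called), with a median difference of 0.03. PABPC1, the poly(A)-binding protein, rose by 0.99 ± 0.25 (limma adjusted p = 0.016), EIF3K by 0.45 (0.019) and NAP1L1, a histone chaperone, by 0.41 (0.026), while EIF4G1, the cap-complex scaffold, fell by 0.32 (0.034).

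Of 34 tested genes of ribosome biogenesis and RNA polymerase I, 2 were higher and 9 lower, with a median difference of -0.21. The called share of 32.4% was near the 35.8% over all genes, and no test was made of the direction. NOLC1, a nucleolar chaperone, read 7.28, 7.10 and 7.69 with Activin A + BMP4 and 8.24, 8.07 and 8.28 with Activin A. Its arrays did not overlap, and it fell by 0.84 ± 0.16 on the log2 scale (limma adjusted p = 0.0040). PPAN and HEATR1, which act in the maturation and synthesis of ribosomal RNA, fell by 0.66 and 0.57 (limma adjusted p = 0.0086 and 0.0027), and the small nucleolar ribonucleoprotein NOP56 rose by 0.51 (0.017).

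Of 17 mitochondrial translation factors and tRNA ligases 11.8% were called, against 35.8% of all genes: 1 rose, the release factor MTRF1L, by 0.49 (limma adjusted p = 0.0092), and 1 fell, the glutamyl-tRNA ligase EARS2, by 0.50 (0.0087). Of 11 mitochondrial ribosome assembly genes 0 were higher and 3 lower (27.3% called, against 35.8% of all genes), with a median of 0.01. The rRNA methyltransferases TFB1M and MRM3 fell by 0.63 (limma adjusted p = 0.0027) and 0.50 (0.031), and FASTKD2 fell by 0.48 (0.032). Ribosomal proteins under other symbols were also read. DAP3, a GTP-binding protein of the mitochondrial small subunit, read 9.13, 8.94 and 8.84 against 9.36, 9.41 and 9.59, and fell by 0.49 ± 0.12 (limma adjusted p = 0.014), while FAU, the precursor of a cytosolic small-subunit protein, differed by 0.10 ± 0.10 (0.44) and the mitochondrial CHCHD1 by 0.07 ± 0.14 (0.72).

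Among 5 tested regulators of ribosome production or of the ribosomal stress response, 3 were lower and 0 higher. The called share of 60%, against 35.8% of all tested genes, rests on few genes, and 2 were not called. MYC, a driver of ribosome synthesis, read 7.64, 7.00 and 7.20 with Activin A + BMP4 and 7.77, 8.23 and 8.44 with Activin A, and MYCN read 8.83, 8.80 and 8.78 against 9.82, 9.66 and 9.69. All arrays were lower with Activin A + BMP4 for both, MYC by 0.87 ± 0.21 (limma adjusted p = 0.013) and MYCN by 0.92 ± 0.10 (0.00019). CDKN1A, the p53 target that encodes p21, fell by 1.85 ± 0.14 on the same scale.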

How the data were processed

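The values the authors deposited are probe intensities, linear and without normalization between arrays per the file headers. Background had already been taken off, as 22.2% to 24.6% of the signals on each array lay below 0. Beside each signal stands a deposited score from 0 to 1, called a detection p-value per the file headers, and 1 minus it was used as p because it rose with the signal. The authors also deposited processed log2 values. Apart from 1 constant per probe and 1 per array these matched the log2 signals to within 1.20e-06 over 6507 probes, their centring baseline is unknown, and they served as an alternative. Which scanner software was used is not stated per the file headers.

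Background correction and quantile normalization used neqc (offset 16) of limma 3.58.1 under R 4.3.3. Probes with detection p under 0.01 on at least 3 of 6 arrays were tested, 10116 of 24526, with lmFit and eBayes, treatment as the only term, two-sided, and Benjamini-Hochberg adjustment over all of them at 0.05. The platform annotation gave 1 symbol for 21834 probes, several for 0 and none for 2692, and 21813 gene IDs matched RefSeq. The brightest tested probe stood for a gene. Cytosolic members had 93 probes (86 tested) and mitochondrial members 99 (83 tested). Their 2 Y-linked genes were left out. The fit was tested on simulated data in which 200 of 10116 probes changed, fewer than were called here. It called 25% of log2 changes of 0.5 and 78.5% of changes of 1. The adjustment is stricter where fewer probes change, so these shares do not carry over directly to the data. A gene that was not called is not shown to be unchanged. Precision is limited by 3 arrays a treatment.

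Genes named were up to 8 largest rises and falls per set among called genes with arrays that did not overlap, fixed paralogs, stalk and 5S particle proteins, the 5 brightest and 5 dimmest tested members of each set, and up to 3 called members of each list. Other probes and genes named, such as RPS15A, RPL34, RPL17 and POU5F1, were chosen after their values were seen. The members and lists were chosen with earlier results of these data known. Same-numbered arrays of the treatments did not deviate together (correlations 0.03, -0.03 and -0.05), so the numbers were not used as pairs. Promoter windows run from 250 bases before to 50 after each annotated start, 35116 windows of 27305 genes. Alternatives covered background correction, normalization, the detection filter, the probe rule, replicate and chip blocks, and leaving out each array.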

Additional observations from a re-analysis of the deposited data

How the results depend on the processing

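The 22 called members kept their direction in 350 of 350 recomputed values and their call in 278. Calls held in every alternative run for 4 of 13 cytosolic and 6 of 9 mitochondrial genes. For MRPL38 there were 15 alternatives, as it was not tested where detection on all 6 arrays was required. None of these genes had a second tested probe, so averaging a gene's probes could not change their values. The count of cytosolic rises was least stable. It was 3 instead of 8 with median scaling, with the authors' processed values and with no filter on dim probes, and 3 to 5 without 1 array. The falls were 4 under each of these 3 settings, and 3 to 4 without 1 array, against 5. Under all 3 of these settings the falls thus outnumbered the rises. The mitochondrial rises were 5 with the replicate block and 2 to 5 without 1 array, and the falls 4 to 6. The block changed no other count by over 1.5 times. Over all genes, 1126 to 1277 were higher and 1216 to 1341 lower without 1 array, which leaves fewer samples to test with.

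The median difference of the cytosolic set was 0.11 with cyclic loess, -0.0389 with median scaling, -0.0331 with the deposited processed values and 0.00031 to 0.0912 without 1 array. That of the mitochondrial set stood at -0.0537 after median scaling, -0.0485 with the deposited processed values, -0.0782 with detection on all 6 arrays and -0.0262 to 0.0383 without 1 array. No direction of either set's median therefore holds across settings. The gap between the medians, cytosolic minus mitochondrial, was 0.02, and 0.10 with cyclic loess, 0.11 with detection on all 6 arrays and 0.0047 to 0.0747 without 1 array. The causes were not tested.

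Among named genes that were not called, RPS27 turned to 0.11 with cyclic loess. RPL36AL turned to -0.0676 under median scaling and -0.0622 with the deposited processed values, and ranged from -0.0167 to 0.23 without 1 array, below 0 without Activin A + BMP4 array 3 (-0.0032) or Activin A array 1 or 2 (-0.0075 for array 2). RPL26 ranged from -0.0877 to 0.0912 without 1 array, above 0 without Activin A + BMP4 array 1 (0.0048) or Activin A array 1 (0.0912). RPL3 and RPL5 passed the threshold under normexp with an offset of 50, at limma adjusted p = 0.045 and 0.046. Probes near background, such as RPL7A and MRPL38, and the brightest probes, which quantile normalization holds nearly level, limit what can be read from the ends of the scale.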

Other observations

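The array also carried 12 probes of 11 ribosomal protein pseudogenes, which were left out of the sets. Of these probes, 4 were detected on all arrays and 7 on none. RPL23AP64 read 10.52, 10.77 and 11.03 with Activin A + BMP4 and 9.79, 10.18 and 10.17 with Activin A, with no overlap, and was higher by 0.73 ± 0.16 (limma adjusted p = 0.0089). RPL23AP32 was higher by 0.62 ± 0.21 (limma adjusted p = 0.046), with 1 level shared by both treatments. RPL13P5 and RPL23AP7 differed by 0.37 ± 0.13 and 0.35 ± 0.13 and did not pass (limma adjusted p = 0.056 and 0.060). Whether these probes read pseudogene transcripts or those of the parent genes was not tested.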
